A study of Mus musculus with 8 samples.

Results

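The genes of oxidative phosphorylation were taken as the protein-coding genes whose symbols name subunits of respiratory complexes I to IV or of ATP synthase (complex V). This rule found 98 of the 55573 gene IDs in the count tables, of which 85 are in the nucleus and 13 in the mitochondrial genome. The nuclear members comprised 37 genes of complex I, 4 of complex II, 8 of complex III, 18 of complex IV and 18 of complex V. The mitochondrial members comprised 7, 0, 1, 3 and 2 genes of the same complexes. Members were assigned by symbol, so Ndufa4 and Ndufa4l2 are counted with complex I, although Ndufa4 is now known as a subunit of complex IV. Complexes I to IV pass electrons from NADH and succinate to oxygen and build a proton gradient, which ATP synthase spends to make ATP. Every complex except complex II joins subunits made in the mitochondrion with subunits made in the cytosol from nuclear genes. Fast-spiking parvalbumin interneurons are known for a high demand on this pathway.

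RNA was measured in 8 libraries from cells of mouse cerebral cortex, sorted by a tdTomato reporter that Cre recombinase from the parvalbumin (PV-Cre) line switches on. The groups were PV-Cre/tdTomato/Dnmt1 loxP2 mice (KO) and PV-Cre/tdTomato mice with wild-type Dnmt1 (WT), each at 6 and at 18 months of age, on the C57BL/6 background, with 2 libraries per group. Cre and the reporter were thus carried by both genotypes, and in KO mice Cre removes exons 4 and 5 of Dnmt1, the gene of the maintenance DNA methyltransferase. Per the series' design text, cells were pooled from 6 WT and 6 KO mice and the 2 libraries are technical replicates, so p-values measure the spread between such libraries and not between animals.

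Library totals ran from 6008175 to 13551218 counts. Dnmt1 had 77.2 and 75.2 CPM in KO libraries, against 97.9 and 103.6 CPM in WT libraries, at 6 months, and 74.3 and 76.6 CPM in KO, against 80.8 and 81.1 CPM in WT, at 18 months. These counts cover the whole gene, not only the deleted exons. CPM are counts scaled to a common library total. Pvalb, the gene of parvalbumin itself, had 6 reads in all libraries together, whereas 12 oligodendrocyte markers had group means of their summed level from 14210 to 41571 CPM. The values below are therefore those of a mixture of cells, in which fewer cells of a type and less RNA per cell cannot be told apart.

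Of the 98 members, 88 had enough reads to be tested (81 nuclear and 7 mitochondrial) and 8 had no read in any library. Of these 8, 6 were mitochondrial, namely mt-Co2, mt-Atp8, mt-Atp6, mt-Co3, mt-Nd3 and mt-Nd4l, which lie side by side on the mitochondrial genome between mt-Co1 and mt-Nd4. The other genes without reads were Cox8c and a second gene ID of Atp5o. Cox7b2 and Cox8b had 10 and 17 reads and were not tested.

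A copy of this stretch of the mitochondrial genome is annotated on nuclear chromosome 1 (mm10), in pseudogenes between chr1:24611535 and chr1:24616197. For 5 of the 6 mitochondrial genes without reads, the aligned pseudogene was 100% identical, and between 97.99% and 100% of their 50-base windows also occurred in another annotated gene. The pairs were mt-Atp6 with Gm10925, mt-Co2 with Gm28661, mt-Co3 with Gm28437, mt-Nd3 with Gm28438 and mt-Nd4l with Gm10222. These pseudogenes had no read either, except Gm28661, which had 2. The sixth gene, mt-Atp8, shared no such window with an annotated transcript. The first 100 bases of mt-Nd4l (chrM:9877-10173, plus strand) and of its pseudogene (chr1:24612407-24612700) are shown because they are the same letter for letter.
mt-Nd4l: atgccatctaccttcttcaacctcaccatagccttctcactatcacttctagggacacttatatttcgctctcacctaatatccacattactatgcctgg
Gm10222: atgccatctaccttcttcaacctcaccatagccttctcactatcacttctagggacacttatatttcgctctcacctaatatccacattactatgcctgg
In mt-Co1 (chrM:5328-6872, plus strand), which kept 336615 reads, 51.14% of windows were shared, and a stretch of 100 bases with 1 difference from Gm29216 (chr1:24615706-24616197) is shown with that base in capitals.
mt-Co1: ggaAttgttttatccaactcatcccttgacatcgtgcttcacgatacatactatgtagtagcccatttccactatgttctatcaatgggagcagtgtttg
Gm29216: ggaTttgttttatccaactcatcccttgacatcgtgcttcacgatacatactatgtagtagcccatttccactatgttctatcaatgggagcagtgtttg
The shared share was 62.23% for mt-Nd4 and 0% for mt-Nd1, mt-Nd6 and mt-Cytb. How the authors' counting treated reads with several matches was not given in the sources used here, so the levels of mt-Co1 and mt-Nd4 are uncertain, and 0 reads do not show that the 6 genes are unexpressed.

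**Figure D1:**
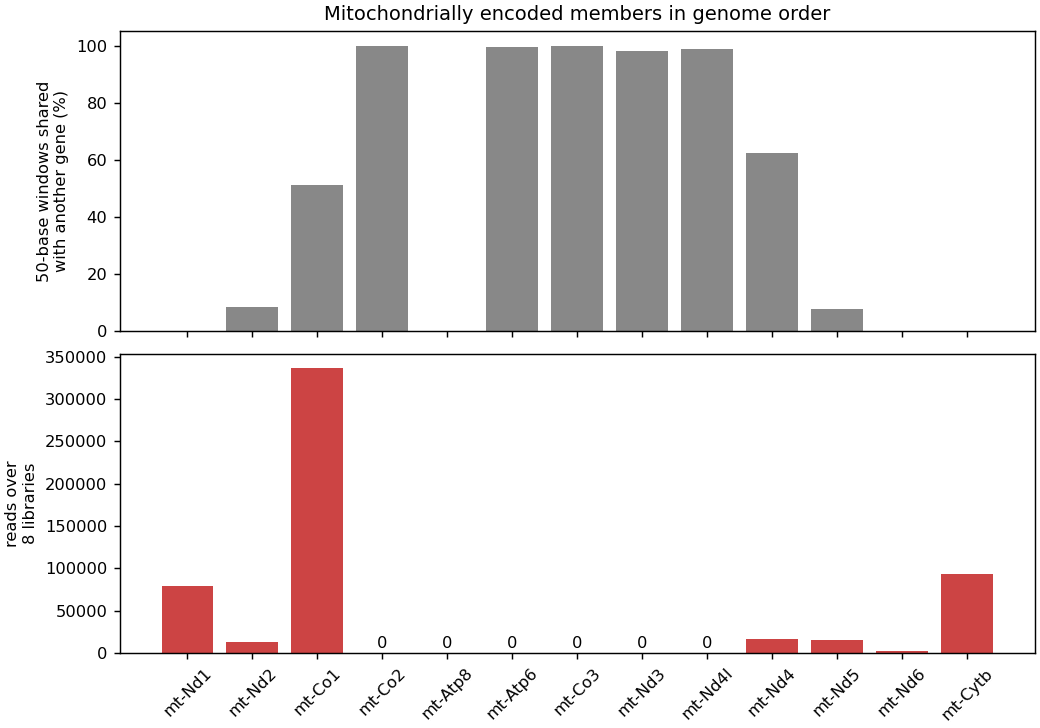
Bars give, for the 13 mitochondrially encoded members in genome order, the share of 50-base windows that also occur in another annotated gene (upper panel, %) and the reads over all 8 libraries (lower panel). The 6 genes with 0 reads are neighbours, and 5 of them share at least 97.99% of their windows.

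All 7 tested mitochondrial genes were higher in KO than in WT at 6 months and lower in KO than in WT at 18 months. They encode subunits of complex I (mt-Nd1, mt-Nd2, mt-Nd4, mt-Nd5 and mt-Nd6), cytochrome b of complex III (mt-Cytb) and the catalytic subunit of complex IV (mt-Co1). Across all 18205 genes tested, 19.2% were higher and 19.6% lower in KO at 6 months, and 14.7% were higher and 17.4% lower in KO at 18 months, by an edgeR adjusted p of at most 0.05. The median log2 fold change of the 7 genes was 1.31 at 6 months and -0.98 at 18 months, where the medians over all genes were 0.00 at both ages. Mitochondrial transcripts are cut from long shared precursors, so these genes are not independent measurements.

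At 6 months, mt-Co1 had 5970 and 5627 CPM in KO libraries, against 3574 and 3246 CPM in WT libraries. At 18 months it had 3103 and 3342 CPM in KO, against 5983 and 5277 CPM in WT. The groups did not overlap at either age, and the log2 fold change of KO over WT was 0.77 (SE 0.06, edgeR adjusted p = 1.74e-10) at 6 months and -0.80 (SE 0.06, adjusted p = 2.00e-10) at 18 months.

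mt-Cytb had 1929 and 1759 CPM in KO libraries, against 853.0 and 652.0 CPM in WT libraries, at 6 months. At 18 months mt-Cytb had 751.7 and 947.6 CPM in KO, against 1847 and 1346 CPM in WT. Its log2 fold change was 1.29 (SE 0.12) and then -0.91 (SE 0.11). Among the complex I genes the changes ran from 1.28 for mt-Nd5 to 1.88 for mt-Nd2 at 6 months, and from -1.21 for mt-Nd6 to -0.92 for mt-Nd2 at 18 months. mt-Nd6 is the member on the opposite strand, and it had 55.5 and 70.1 CPM in KO, against 19.3 and 16.1 CPM in WT, at 6 months. At 18 months it had 16.0 and 22.8 CPM in KO, against 45.4 and 43.6 CPM in WT. The use of strand in counting was not given in the sources used here, so reads of mt-Nd6 and of its antisense partner cannot be told apart.

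**Figure D2:**
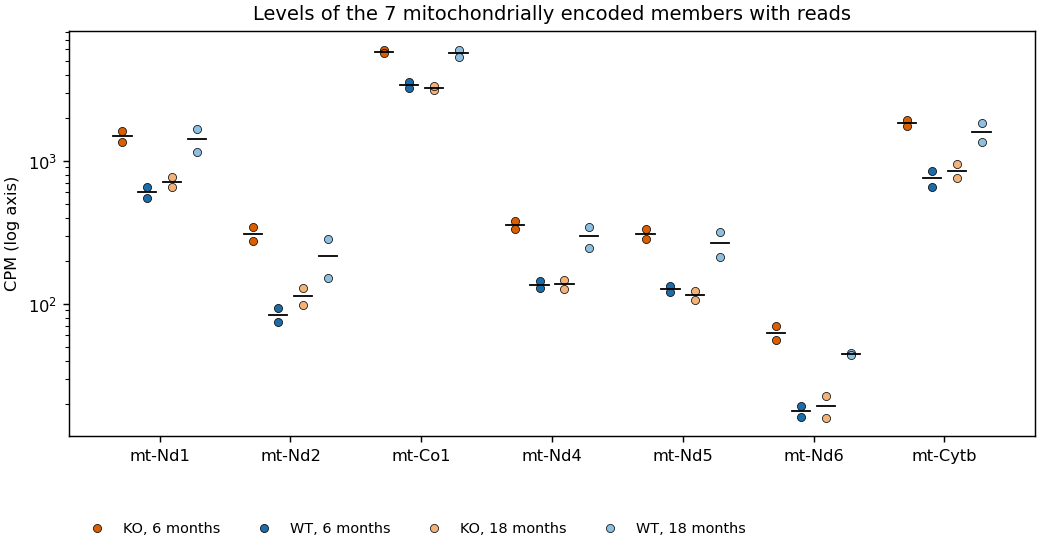
Points give CPM (log axis) of each mitochondrially encoded gene with reads in each of the 8 libraries, and bars the group means. In every gene both KO libraries lie above both WT libraries at 6 months and below them at 18 months.

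Between ages the same genes moved in opposite directions in the genotypes. In KO all 7 were lower at 18 than at 6 months, with a median log2 fold change of -1.38, and in WT all 7 were higher, with a median of 1.11. Over all genes, 13.8% were higher and 17.9% lower with age in KO, and 28.2% were higher and 30.8% lower with age in WT. These comparisons reuse the libraries of the genotype comparisons and are not further evidence. For the difference between the genotype effects at 18 and at 6 months, the interaction, 18.4% of all genes were positive and 20.7% negative at the same threshold. All 7 genes were negative, from -3.03 (mt-Nd6) to -1.57 (mt-Co1) on the log2 scale. All of these calls held in every alternative run.

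The mitochondrial rRNAs mt-Rnr1 and mt-Rnr2, which are not members, were also higher in KO at 6 months and lower in KO at 18 months. Their log2 fold changes were 2.45 and 2.73 at 6 months, above those of all 7 tested members, and -1.23 and -0.90 at 18 months. mt-Rnr2 had 50054 and 33887 CPM in KO, against 8039 and 4623 CPM in WT, at 6 months, and 14780 and 17700 CPM in KO, against 38221 and 22426 CPM in WT, at 18 months. The rRNA sum was 5.95 and 4.51 times the summed mitochondrial members in KO, against 1.89 and 1.37 times in WT, at 6 months. At 18 months it was 3.46 and 3.88 times in KO, against 4.37 and 3.31 times in WT. The ratio of rRNA to the summed mitochondrial members with reads thus differed between genotypes without overlap at 6 months and overlapped at 18 months.

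The summed levels of the nuclear and of the mitochondrial members differed in direction at 6 months. The nuclear members' summed level was 3289 and 3346 CPM in KO, against 3553 and 3631 CPM in WT, at 6 months, and 2862 and 2981 CPM in KO, against 3579 and 3787 CPM in WT, at 18 months. The mitochondrial sum was 10631 and 9711 CPM in KO, against 5467 and 4788 CPM in WT, at 6 months, and 4860 and 5479 CPM in KO, against 10484 and 8430 CPM in WT, at 18 months. The ratio of the mitochondrial to the nuclear sum was therefore 3.23 and 2.90 in KO, against 1.54 and 1.32 in WT, at 6 months. At 18 months it was 1.70 and 1.84 in KO, against 2.93 and 2.23 in WT. The mitochondrial sum covers only the 7 genes with reads. Its largest part was mt-Co1, whose level is uncertain, with 5970 and 5627 CPM in KO and 3574 and 3246 CPM in WT at 6 months. The size of the ratio is therefore uncertain too. At 6 months the nuclear sum was lower in KO while the mitochondrial sum was higher, and at 18 months both were lower in KO.

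**Figure D3:**
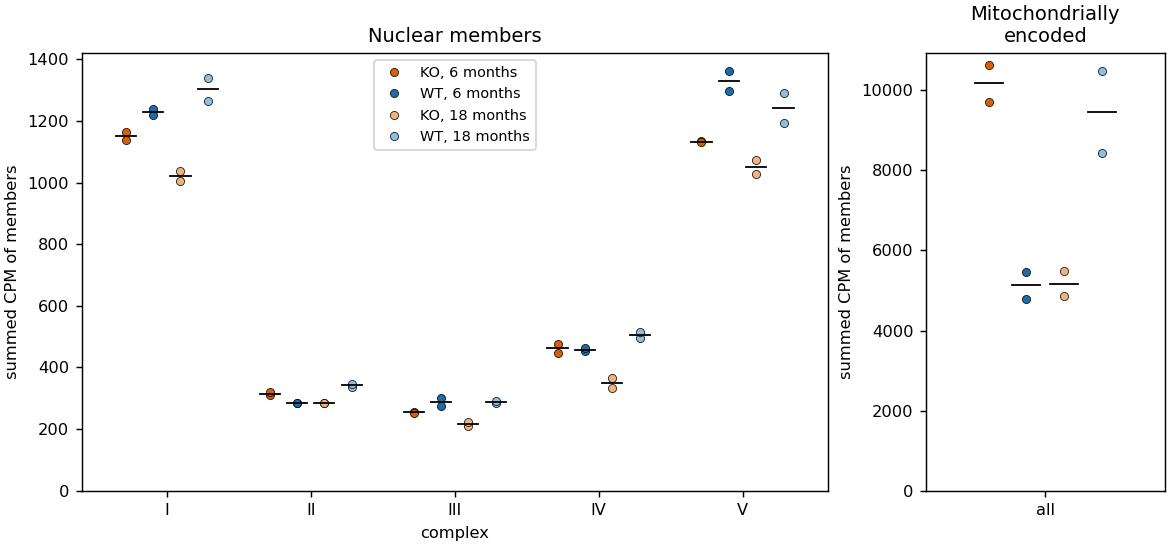
Points give the summed CPM of the nuclear members of each complex (left) and of the mitochondrially encoded members (right) in each library, and bars the group means. KO at 18 months has the lowest mean in complexes I, III, IV and V, and is level with WT at 6 months in complex II.

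At 6 months 4 of the 81 tested nuclear members were higher (4.94%) and 14 lower (17.3%) in KO than in WT. The share higher is below the 19.2% of all genes, and the share lower is near their 19.6%. The median log2 fold change was -0.07. The effects were small, with folds of the lower members between 1.22 and 1.44. Without KO replicate 1 the number lower was 7, without WT replicate 2 it was 8, and the number higher was 2 without WT replicate 2.

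Complex I gave 1 higher and 5 lower members of 37 at 6 months (2.70% and 13.5%), below the 19.2% and 19.6% of all genes. Ndufv1, which holds the flavin that takes electrons from NADH, had 77.6 and 77.5 CPM in KO, against 110.5 and 101.7 CPM in WT, and fell by 0.45 on the log2 scale (SE 0.08, edgeR adjusted p = 3.80e-05). In complex II, Sdha, the flavin subunit that oxidises succinate, had 188.7 and 192.0 CPM in KO, against 146.2 and 145.1 CPM in WT, a log2 fold change of 0.39 (SE 0.06, adjusted p = 1.43e-05). Its partner Sdhb, the iron-sulphur subunit, had 49.8 and 54.9 CPM in KO, against 63.0 and 70.0 CPM in WT. Sdhb fell by 0.35, a call lost without KO replicate 1 (adjusted p = 0.0824) or WT replicate 2 (0.0724).

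In complex III, Uqcrfs1, the Rieske iron-sulphur protein, had 33.9 and 33.1 CPM in KO, against 47.7 and 48.6 CPM in WT, at 6 months. It fell by 0.52 (SE 0.10, edgeR adjusted p = 0.000162). In complex V the α and β subunits of the catalytic head fell slightly. Atp5a1 had 302.9 and 304.1 CPM in KO, against 366.4 and 397.5 CPM in WT, and Atp5b had 387.1 and 386.1 CPM in KO, against 454.5 and 491.9 CPM in WT. Their log2 fold changes were -0.33 and -0.29. Calls for Uqcrc1, Cox5a, Ndufa4 and Ndufa7 at 6 months were each lost without WT replicate 2, where adjusted p was 0.281, 0.478, 0.0702 and 0.102. Without KO replicate 1 the calls of Uqcrc1 (0.0602), Cox5a (0.213) and Ndufa4 (0.0510) were lost too, without KO replicate 2 those of Cox5a (0.0735) and Ndufa4 (0.160), and without WT replicate 1 that of Ndufa4 (0.0536).

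At 18 months 4 of the 81 nuclear members were higher (4.94%) and 51 lower (63.0%) in KO than in WT, beside 14.7% and 17.4% of all genes. The median log2 fold change was -0.36. The lower members had folds between 1.14 and 1.99. Without WT replicate 2 the number lower was 32 and the number higher 2. By complex, 25 of 37 members of complex I were lower, 4 of 4 of complex II, 5 of 8 of complex III, 8 of 15 of complex IV and 9 of 17 of complex V. Of the 14 members lower at 6 months, 9 (64.3%) were among the 51 lower at 18 months (17.6% of them). These comparisons share no library, but 64.3% is near the 63.0% of all 81 nuclear members that were lower at 18 months. The overlap therefore does not set the members lower at 6 months apart from the other nuclear members.

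**Figure D4:**
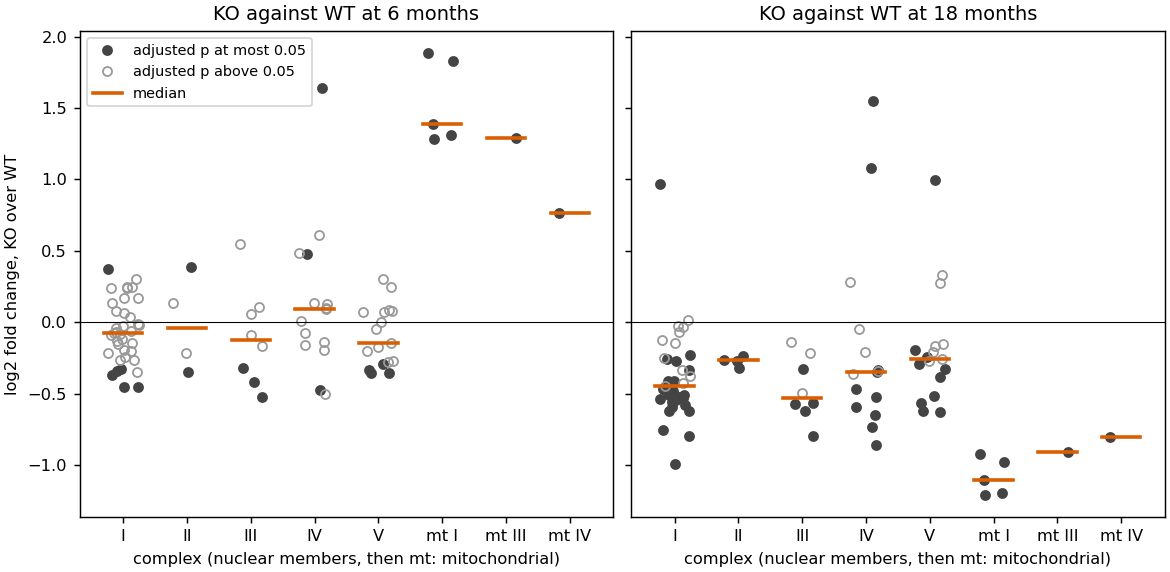
Points give the log2 fold change of KO over WT of each tested member at 6 months (left) and 18 months (right), filled where the edgeR adjusted p was at most 0.05, and bars the median of each complex. The mitochondrial members are above 0 at 6 months and below it at 18 months, while most nuclear members are near 0 at 6 months and below it at 18 months.

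In complex I at 18 months, Ndufv2, an iron-sulphur subunit of the NADH-oxidising module, had 38.6 and 37.0 CPM in KO, against 53.8 and 55.5 CPM in WT. It fell by 0.53 (SE 0.09, edgeR adjusted p = 2.87e-05). The accessory subunit Ndufa3 had 21.3 and 24.5 CPM in KO, against 41.3 and 36.5 CPM in WT, and fell by 0.76. In complex II, Sdha had 179.6 and 178.1 CPM in KO, against 217.5 and 214.3 CPM in WT, so it was lower in KO at 18 months and higher at 6 months. In complex III, the small subunit Uqcr11 had 14.7 and 17.4 CPM in KO, against 26.2 and 29.2 CPM in WT, and the hinge protein Uqcrh had 29.5 and 32.4 CPM in KO, against 45.9 and 46.2 CPM in WT. They fell by 0.80 and 0.57.

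In complex IV at 18 months, Cox4i1, the common form of the regulatory subunit 4, had 93.5 and 94.9 CPM in KO, against 141.4 and 153.3 CPM in WT. It fell by 0.65 (SE 0.07, edgeR adjusted p = 7.61e-08). Cox6a1 had 37.3 and 49.3 CPM in KO, against 76.6 and 79.6 CPM in WT, and Cox6b1 had 29.5 and 32.7 CPM in KO, against 51.0 and 52.0 CPM in WT. These fell by 0.86 and 0.73, and Cox7a2 and Cox8a by 0.59 and 0.52. In complex V, Atp5k and Atp5j2, small subunits of the membrane part, fell by 0.63 and 0.56.

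The members higher in KO at 18 months were Ndufa4l2, Cox4i2, Cox6a2 and Atp5g2, and each has a more abundant sister gene. Ndufa4l2, a hypoxia-inducible relative of Ndufa4, had 14.7 and 14.9 CPM in KO, against 7.65 and 7.54 CPM in WT, a log2 fold change of 0.97 (SE 0.15, edgeR adjusted p = 1.82e-05). Ndufa4 itself had 22.9 and 22.3 CPM in KO, against 31.7 and 34.6 CPM in WT, and fell by 0.56. Reads of Ndufa4l2 made up 39.6% of the pair's reads in KO (SD 0.70, n = 2) and 18.7% in WT (SD 1.07, n = 2).

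Cox4i2, the form of subunit 4 linked to low oxygen, had 6.41 and 7.59 CPM in KO, against 3.39 and 3.23 CPM in WT, at 18 months, a log2 fold change of 1.08 (SE 0.22, edgeR adjusted p = 0.000480). Its share of the reads of Cox4i1 and Cox4i2 was 6.91% in KO (SD 0.70) and 2.20% in WT (SD 0.19). At 6 months the shares were 6.83% in KO (SD 0.34) and 6.68% in WT (SD 1.13), so WT at 18 months was the group that stood apart. Cox4i2 and Ndufa4l2 are known in mouse brain from pericytes and smooth muscle cells. The 10 markers of these vessel cells summed to 2048 and 2016 CPM in KO, against 1204 and 1239 CPM in WT, at 18 months. Of them, 7 were higher (70%) and 1 lower (10%) in KO at 18 months, beside 14.7% and 17.4% of all genes. The part of these cells in the results was not tested.

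Cox6a2, the muscle form of subunit 6a, which in mouse brain is also known from parvalbumin interneurons, had 110 reads in all. It had 2.29 and 1.31 CPM in KO, against 0.494 and 0.650 CPM in WT, at 6 months, and 2.21 and 2.33 CPM in KO, against 0.878 and 0.693 CPM in WT, at 18 months. The edgeR log2 fold change of Cox6a2 was 1.64 (SE 0.57, adjusted p = 0.0264) and then 1.55 (SE 0.43, adjusted p = 0.00705). The call at 6 months was lost without KO replicate 1 (adjusted p = 0.263), WT replicate 1 (0.110) or WT replicate 2 (0.0651), and that at 18 months without WT replicate 2 (0.117). Atp5g2, 1 of 3 genes for the same c subunit of complex V, had 195 reads, and 87.4% of its windows occur in other genes. It had 3.44 and 4.57 CPM in KO, against 2.76 and 1.46 CPM in WT, and its call was lost without KO replicate 2 (adjusted p = 0.184) or WT replicate 2 (0.379). The other isoform genes Cox6b2, Cox7a1, Cox7a2l, Atp5g1 and Atp5g3 did not pass at 18 months, with log2 fold changes of -0.05, -0.34, -0.36, 0.28 and -0.21. Cox7a2l, which helps to join complexes III and IV, had 15.1 and 17.1 CPM in KO, against 10.2 and 12.8 CPM in WT, at 6 months, a call lost without KO replicate 2 (adjusted p = 0.146) or WT replicate 1 (0.199).

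**Figure D5:**
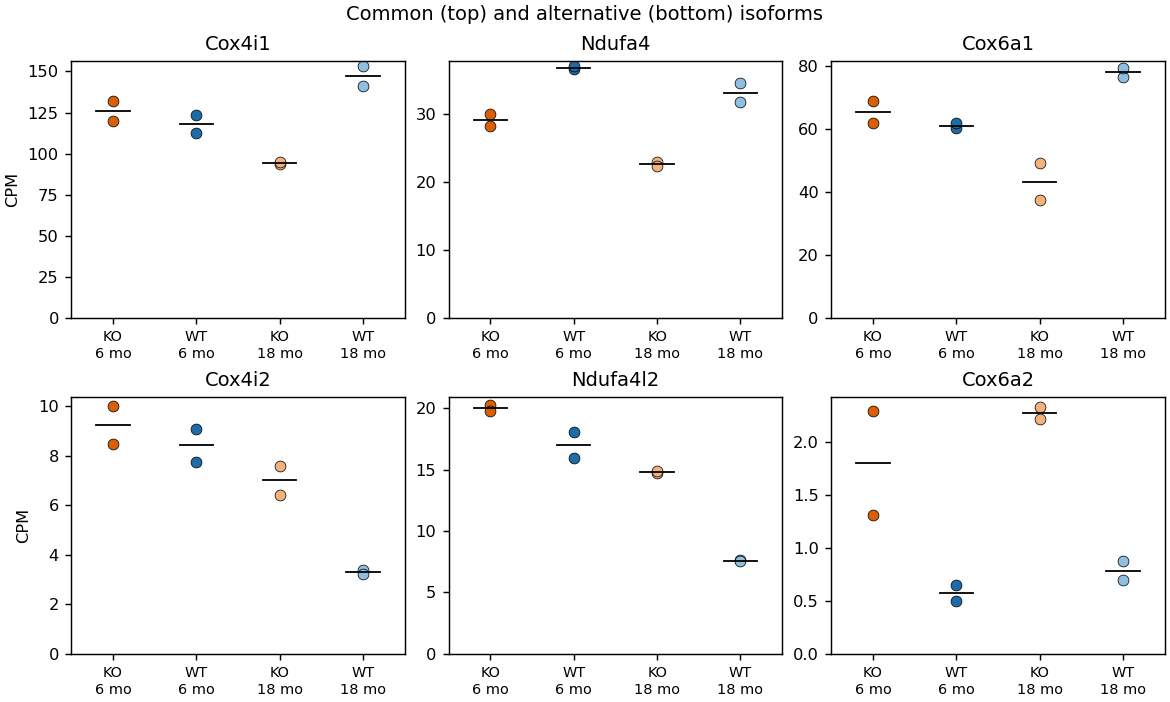
Points give CPM in each library, and bars group means, for the common (upper row) and alternative (lower row) member of 3 pairs. At 18 months both KO libraries lie below both WT libraries in the upper row and above them in the lower row.

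With age in KO, 2 nuclear members were higher and 31 lower at 18 than at 6 months (2.47% and 38.3%, beside 13.8% and 17.9% of all genes), with a median log2 fold change of -0.25. The number lower was 13 without KO replicate 2 at 6 months and 14 without KO replicate 1 at 18 months, and the number higher was 1 without any 1 of the 4 KO libraries. Cox4i1, Cox6a1, Cox6b1 and Cox8a fell by 0.42, 0.60, 0.59 and 0.71. Cox8a, a small subunit of complex IV, had 25.8 and 32.9 CPM at 18 months, against 47.6 and 47.8 CPM at 6 months. Atp5e, the ε subunit of complex V, had 11.0 and 13.6 CPM at 18 months, against 19.1 and 20.4 CPM at 6 months, and fell by 0.69. Ndufs1, an iron-sulphur subunit of complex I, had 97.1 and 89.9 CPM at 18 months, against 76.3 and 77.4 CPM at 6 months, a call lost without KO replicate 1 at 18 months (edgeR adjusted p = 0.0599).

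With age in WT, 16 nuclear members were higher and 8 lower (19.8% and 9.88%, beside 28.2% and 30.8% of all genes), and the median was 0.09. The number lower was 4 without WT replicate 2 at 6 months or WT replicate 1 at 18 months. Sdha had 217.5 and 214.3 CPM at 18 months, against 146.2 and 145.1 CPM at 6 months, a log2 fold change of 0.57 (SE 0.06, edgeR adjusted p = 1.43e-08). Ndufa7 and Ndufa3, accessory subunits of complex I, both rose by 0.55. Uqcrfs1 had 37.7 and 35.9 CPM at 18 months, against 47.7 and 48.6 CPM at 6 months, and fell by 0.39. Ndufa4l2 and Cox4i2 fell by 1.16 and 1.35, and the pericyte and smooth muscle markers summed to 1204 and 1239 CPM at 18 months, against 2731 and 2772 CPM at 6 months.

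For the interaction, 3 nuclear members were positive and 28 negative (3.70% and 34.6%, beside 18.4% and 20.7% of all genes), with a median of -0.28. The number positive was 1 without KO replicate 1 at 6 months or WT replicate 2 at 18 months. Among the negative members, Cox4i1 had a log2 difference of -0.74 (SE 0.10, edgeR adjusted p = 1.55e-06), Sdha of -0.66 (SE 0.08, adjusted p = 5.28e-07) and Ndufa3 of -1.001 (SE 0.17, adjusted p = 3.05e-05). KO at 18 months had the lowest group mean in 60 of the 81 nuclear members (74.1%), against 24.1% of all tested genes. WT at 18 months had the highest in 38 (46.9%), against 27.6% of all genes.

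Levels between genes were compared as CPM per kb of exon, averaged over all libraries. mt-Co1 reached 2923 CPM per kb, mt-Cytb 1102 and mt-Nd1 1101, while mt-Nd6 had 69.5. Among tested nuclear members, Atp5a1 with 105.8 was the highest of complex V and Cox6a1 with 88.3 the highest of complex IV. Among the tested nuclear members of those complexes, Atp5g1 with 1.08 and Cox6a2 with 2.00 were lowest. With the length of the principal transcript, an alternative added after the data were seen, Atp5b (214.8) and Cox4i1 (158.7) were highest instead.

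Promoters of nuclear members were read from RefSeq (GRCm38.p6), from 250 bases before to 50 after the start site, and 66 of 84 symbols had an entry. Known regulators of this pathway include NRF1, ETS-family factors such as GABP, YY1 and the oestrogen-related receptors (ERR). The letters GCGCATGCG (NRF1) on either strand were present in 8 members (12.1%), against 1.95% of 27025 genes. CCGGAA (ETS core) was in 25 (37.9%), against 16.7%, AAGATGGCG (YY1) in 7 (10.6%), against 1.64%, and TCAAGGTCA (ERR) in 2 (3.03%), against 0.466%. Member promoters also held a median of 19 CpG, against 7 over all genes, and 57.2% GC, against 52.8%, so base composition differs between the sets. Overlapping NRF1 matches on both strands come from its near-palindromic letters. Atp5g2, which was higher in KO at 18 months, holds the NRF1 letters too. A link between the letters and the direction of change was not tested. The promoters of Cox6a1 (chr5:115348909-115349208, minus strand), Uqcr11 (chr10:80406772-80407071, minus strand) and Cox6b1 (chr7:30626065-30626364, minus strand) are shown as examples that hold matches, in capitals. They were picked among genes that fell in KO at 18 months.
Cox6a1: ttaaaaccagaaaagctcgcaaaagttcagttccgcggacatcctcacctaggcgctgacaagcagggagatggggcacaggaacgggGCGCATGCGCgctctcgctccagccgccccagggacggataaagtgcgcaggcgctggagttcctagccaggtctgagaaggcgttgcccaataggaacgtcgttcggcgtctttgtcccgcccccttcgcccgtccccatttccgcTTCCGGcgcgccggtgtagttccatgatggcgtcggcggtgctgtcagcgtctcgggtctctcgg
Uqcr11: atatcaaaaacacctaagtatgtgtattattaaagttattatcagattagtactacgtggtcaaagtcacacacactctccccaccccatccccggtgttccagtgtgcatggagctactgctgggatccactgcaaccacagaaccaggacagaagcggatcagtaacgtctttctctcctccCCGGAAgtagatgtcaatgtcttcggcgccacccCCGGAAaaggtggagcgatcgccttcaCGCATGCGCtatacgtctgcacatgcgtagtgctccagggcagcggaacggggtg
Cox6b1: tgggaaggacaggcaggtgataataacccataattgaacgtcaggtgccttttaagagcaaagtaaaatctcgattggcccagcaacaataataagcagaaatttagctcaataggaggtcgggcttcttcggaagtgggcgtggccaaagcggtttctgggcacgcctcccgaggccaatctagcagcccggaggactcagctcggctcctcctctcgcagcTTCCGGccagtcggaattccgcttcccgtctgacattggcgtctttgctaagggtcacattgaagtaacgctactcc
Cox6a1 and Uqcr11 hold NRF1 and ETS letters, and Cox6b1 holds ETS letters only. A match is a description of the letters and not a binding site.

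Genes around the pathway were counted in the same fit, among those with enough reads to be tested. Beside each count stand the shares of all genes given above, 19.2% higher and 19.6% lower in KO at 6 months and 14.7% higher and 17.4% lower at 18 months. Of 12 regulators of mitochondrial biogenesis, 1 was higher (8.33%) and 6 lower (50%) in KO at 6 months, and 4 were higher (33.3%) and 1 lower (8.33%) at 18 months. The coactivator gene Ppargc1a had a log2 fold change of -0.79 at 6 months and 0.79 at 18 months, and its partner Esrra of -0.61 and 0.36. Their signs were thus opposite to those of the mitochondrial members at both ages. Of 18 genes of the citric acid cycle and pyruvate dehydrogenase, 2 were higher (11.1%) and 10 lower (55.6%) at 6 months, and 4 higher (22.2%) and 1 lower (5.56%) at 18 months. Idh2 had log2 fold changes of -0.75 and 0.32. Of 29 factors for the expression and upkeep of the mitochondrial genome, 2 were higher and 2 lower (6.90% each) at each age. These shares are below those of all genes. Of 26 genes of electron carriers and exchange, 0 were higher and 7 lower (26.9%) at 6 months. At 18 months 5 of these were higher (19.2%) and 4 lower (15.4%).

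Of 17 glycolysis genes, 1 was higher (5.88%) and 13 lower (76.5%) in KO at 6 months, with a median of -0.61, and 8 were higher (47.1%) and 3 lower (17.6%) at 18 months, with a median of 0.25. Pfkp, a phosphofructokinase, had log2 fold changes of -1.10 and 0.97, and Aldoc, an aldolase that is also on the astrocyte marker list, of -1.06 and 1.02. Of 77 mitochondrial ribosomal protein genes, 1 was higher (1.30%) and 8 lower (10.4%) at 6 months, and 1 higher (1.30%) and 16 lower (20.8%) at 18 months. The ribosomal share lower was thus below that of all genes at 6 months and near it at 18 months. Of 46 assembly factors, 4 passed at 6 months, each lower in KO (8.70%), and 2 were higher (4.35%) and 6 lower (13.0%) at 18 months, all below the shares of all genes. Surf1, a complex IV assembly factor, fell by 0.66 at 18 months. Of 21 import genes, 2 were higher (9.52%) and 1 lower (4.76%) at 6 months, and 1 higher (4.76%) and 8 lower (38.1%) at 18 months.

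Cell type markers moved with the groups beside these results. Of all genes, 19.2% were higher and 19.6% lower in KO at 6 months, and 14.7% higher and 17.4% lower at 18 months. All 12 oligodendrocyte markers were higher in KO at 6 months and lower at 18 months, the directions of the mitochondrial members. They summed to 31708 and 30777 CPM in KO, against 14186 and 14234 CPM in WT, at 6 months, and to 28712 and 28193 CPM in KO, against 41600 and 41543 CPM in WT, at 18 months. With age in KO, 2 oligodendrocyte markers were higher (16.7%) and 6 lower (50%), beside 13.8% and 17.9% of all genes. Their median log2 fold change with age in KO was -0.19, against -1.38 for the mitochondrial members. All 12 astrocyte markers went the other way between genotypes at each age. They summed to 9976 and 10044 CPM in KO, against 16583 and 16664 CPM in WT, at 6 months. At 18 months they summed to 11837 and 11840 CPM in KO, against 5555 and 5596 CPM in WT. The 10 GABA neuron markers summed to 753.3 and 778.1 CPM in KO, against 1288 and 1249 CPM in WT, at 6 months. At 18 months they summed to 839.5 and 864.6 CPM in KO, against 596.3 and 644.4 CPM in WT. Of the 9 tested, 8 were lower in KO at 6 months (88.9%) and 0 higher. At 18 months 2 were higher and 2 lower (22.2% each). Their median log2 fold change was -0.43 at 18 months, opposite in sign to the change of the sum. The 10 microglial markers summed to 166.4 and 166.8 CPM in KO, against 123.0 and 129.5 CPM in WT, at 6 months. At 18 months they summed to 77.9 and 76.5 CPM in KO, against 168.9 and 181.2 CPM in WT. In KO 3 were higher (30%) and 0 lower at 6 months, and 0 were higher and 9 lower (90%) at 18 months. Their sums had the sign of the mitochondrial members between genotypes at each age and between ages in each genotype.

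Of the 10 markers of parvalbumin interneurons, the cells the reporter was meant to label, 9 could be tested. Cox6a2 is on this list and is also a member. Its calls, higher in KO at both ages, are therefore counted here again. At 6 months 4 were higher (44.4%) and 3 lower (33.3%) in KO, beside 19.2% and 19.6% of all genes. At 18 months 2 were higher (22.2%) and 3 lower (33.3%), beside 14.7% and 17.4% of all genes. Their sum was 473.3 and 455.1 CPM in KO, against 360.6 and 354.9 CPM in WT, at 6 months. At 18 months it was 517.5 and 512.3 CPM in KO, against 582.9 and 554.9 CPM in WT. Between genotypes the sum had the sign of the mitochondrial members at each age. Within KO it was higher at 18 than at 6 months, whereas the mitochondrial members were lower. Kcna1, a potassium channel gene on this list, made up much of the sum, with 260.4 and 256.2 CPM in KO, against 124.9 and 124.3 CPM in WT, at 6 months. Other genes of the list went the other way at 6 months. Kcnc1 had 20.4 and 21.5 CPM in KO, against 65.7 and 57.8 CPM in WT. Kcnc2 had 5.38 and 3.82 CPM in KO, against 11.9 and 6.82 CPM in WT. Cplx1 had 7.90 and 10.5 CPM in KO, against 20.2 and 19.8 CPM in WT. Pvalb itself was at or near 0 in every library. The sums of the 6 red blood cell markers also had the sign of the mitochondrial members between genotypes at each age. They were 108.8 and 118.3 CPM in KO, against 22.1 and 21.8 CPM in WT, at 6 months. At 18 months they were 14.7 and 17.2 CPM in KO, against 46.6 and 38.6 CPM in WT. All 6 red blood cell markers were higher in KO at 6 months (100%) and 4 were lower in KO at 18 months (66.7%). Of the 10 markers of oligodendrocyte precursors, 1 was higher (10%) and 9 lower (90%) in KO at 6 months, and 10 were lower (100%) at 18 months. Of the 10 endothelial markers, 2 were higher and 2 lower at 6 months (20% each), near the shares of all genes. At 18 months 3 were higher (30%) and 1 lower (10%). Of the 9 tested excitatory neuron markers, 2 passed at 6 months (22.2%) and 5 at 18 months (55.6%), each lower in KO. The share at 6 months is near that of all genes. The part of these cell types in the members' results was not tested.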

How the data were processed

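The authors deposited raw counts of reads per Ensembl gene, 1 file per library. Per the submitters' processing notes, the tools were featureCounts 1.5.0-p1, STAR 2.5.2a and CASAVA 1.8.2, with the mm10 build. The annotation release, the strand setting and the handling of multi-mapping reads were not given in the sources used here. Symbols and positions came from a GENCODE mm10 annotation, in which 55394 of 55573 IDs had a name.

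Counts were fitted in R 4.3.3 by edgeR 4.0.16 (quasi-likelihood F test, TMM scaling, minimum count 10) in 1 model of 4 groups, with Benjamini-Hochberg adjustment over 18205 genes and a threshold of 0.05. The common biological coefficient of variation was 0.0539, with 4 residual degrees of freedom. Levels are CPM on TMM-scaled totals, and values after ± or SD are over 2 libraries. Library totals of 6008175 to 13551218 counts limit precision for members with few reads, since 3 reads equal 0.221 to 0.499 CPM. The steps were tested on simulated data. Alternatives were other scalings, no filter, DESeq2 1.42.0, a replicate block, the fit of 2 groups only and leaving out each library.

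Members and lists were chosen with earlier results of these data known. Named members were the mitochondrial genes, up to 2 nuclear members per complex and direction with the smallest p and no overlap between groups, members called against the main direction, a set of isoform genes, and the extremes per kb. Sums over members and motif counts have no test.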

Additional observations from a re-analysis of the deposited data

Results flagged for a closer look

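The difference between the genotype effects at 18 and at 6 months was itself tested, as the interaction in edgeR, and 24 named members passed. Among the mitochondrial members the log2 differences were -2.29 for mt-Nd1, -2.81 for mt-Nd2, -2.49 for mt-Nd4, -2.48 for mt-Nd5, -3.03 for mt-Nd6, -2.20 for mt-Cytb and -1.57 for mt-Co1. Among complex I members they were 0.73 for Ndufa4l2, -0.99 for Ndufa7 and -1.001 for Ndufa3. In complex II they were -0.66 for Sdha and -0.40 for Sdhc. In complex III they were 0.38 for Uqcrfs1, -0.67 for Uqcrq and -0.38 for Uqcrc2. In complex IV they were 0.95 for Cox4i2, -0.74 for Cox4i1, -0.96 for Cox6a1, -0.86 for Cox6b1, -0.52 for Cox7a2, -0.84 for Cox7a2l and -0.53 for Cox8a, and in complex V -0.46 for Atp5f1 and -0.52 for Atp5j2.

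Leaving out 1 library ended some of these calls. For Sdhc, adjusted p was 0.0882 without KO replicate 2 at 6 months, 0.0521 without WT replicate 2 at 6 months, 0.0668 without KO replicate 2 at 18 months and 0.182 without WT replicate 2 at 18 months. For Uqcrfs1, it was 0.0676 without KO replicate 1, 0.0980 without KO replicate 2 and 0.0623 without WT replicate 2 at 6 months, and 0.0883 without KO replicate 2, 0.0521 without WT replicate 1 and 0.113 without WT replicate 2 at 18 months. For Cox4i2, it was 0.0704 without KO replicate 1 and 0.0623 without WT replicate 2 at 6 months, and 0.0717 without KO replicate 2 and 0.0668 without WT replicate 2 at 18 months. For Cox8a, it was 0.0547 without WT replicate 2 at 6 months, and 0.0792 without KO replicate 1 and 0.0557 without WT replicate 2 at 18 months. For Atp5j2, it was 0.107 without KO replicate 1 at 6 months, and 0.0519 without KO replicate 1 and 0.0653 without WT replicate 2 at 18 months. The other 19 calls held without any 1 library.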

How the results depend on the processing

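The 7 mitochondrial members kept their direction and call in all 5 comparisons under every alternative. With DESeq2 the members called were 16 for KO against WT at 6 months (2 nuclear higher, 7 lower), 23 with age in KO (1 higher, 15 lower) and 25 for the interaction (0 higher, 18 lower), and nuclear members were 2 higher for KO against WT at 18 months and 5 lower with age in WT. Nuclear members lower at 6 months were 9 with upper-quartile scaling and 8 with no filter. Leaving out 1 library gave 17 to 24 members called for KO against WT at 6 months (nuclear 2 to 4 higher, 7 to 13 lower) and 41 to 65 at 18 months (2 to 5 higher, 32 to 53 lower). It gave 21 to 40 with age in KO (1 to 2 higher, 13 to 31 lower), 26 to 31 with age in WT (12 to 16 higher, 4 to 10 lower) and 29 to 37 for the interaction (1 to 3 higher, 21 to 27 lower). The causes were not tested. With totals that leave out Gm26917 and mitochondrial rRNA, mitochondrial members took 1.11% of counts in KO and 0.582% in WT at 6 months. With totals that leave out mitochondrial genes and Gm26917, nuclear members at 6 months took 0.365% in KO and 0.410% in WT, and at 18 months 0.320% in KO and 0.377% in WT. On the gene's own strand alone, 5 promoters held the NRF1 letters, 11 the ETS core and 0 the ERR letters.

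Deviations of libraries with the same replicate number correlated at up to 0.0758 between groups, so no pairing by number was seen over all tested genes. With 2 libraries per group, such a correlation cannot show whether a batch acted on a few genes. With a replicate block, 28 members were called for KO against WT at 6 months, and no count moved by more than 1.5 times.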
